A study of Homo sapiens with 8 samples.

Results

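Transcripts of 8 antiviral genes, the IFIT genes IFIT1, IFIT2, IFIT3 and IFIT5, the IFITM genes IFITM1, IFITM2 and IFITM3, and BST2, which encodes tetherin, were measured in HEK293T reporter cells that carried a CRISPR activator. They were taken by name, in a choice made with earlier results of these data known. They make up 8 of the 60652 gene rows of the count tables. HEK293T is a line derived from human embryonic kidney, and the cells used here carried TRE3G-GFP, a fluorescent reporter whose promoter holds tet operators. All groups were grown in medium with 10% FBS, received an activator plasmid and a guide plasmid, and were sorted on mCherry and BFP 2 days later. In dCasMINI-VPR sgTet the activator was a miniature, cleavage-dead Cas protein fused to the VPR activation domains, with a guide named Tet, and in dCasMINI-VPR sgNT the same activator had a non-targeting guide. In dCas12a-VPR crTet the activator was the larger, cleavage-dead Cas12a fused to VPR, with a Tet guide, and in dCas12a-VPR crNT it had a non-targeting guide. Each group had 2 libraries of poly(A) messenger RNA. The labels do not say whether the 2 came from separate transfections, so p-values measure the spread between these libraries, which may be technical.

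Interferons bind receptors that act through JAK kinases on transcription factors, which bind interferon-stimulated response elements in promoters such as those of these genes. IFIT proteins bind viral RNA: IFIT1 recognises RNA whose cap lacks ribose methylation, IFIT2 and IFIT3 form complexes with it, and IFIT5 binds RNA with a 5′ triphosphate. IFITM proteins sit in the plasma membrane (mainly IFITM1) and endosomes (mainly IFITM2 and IFITM3), where they hinder fusion of enveloped viruses. Tetherin holds budding virus particles at the cell surface. The IFIT and IFITM genes lie in a cluster each, on chromosomes 10 and 11, and BST2 lies on chromosome 19.

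Levels are given in CPM, counts scaled to a common library size with TMM factors. Reads counted in genes numbered between 17474404 and 21081942 in a library, where 3 reads are worth between 0.142 and 0.172 CPM before the TMM factors. Such a floor covers counting error alone. The unmapped share was 14.4% and 12.7% in crNT and lay between 8.32% and 9.62% elsewhere. EGFP, the reporter transcript, averaged 1006 CPM in sgTet and 3.82 CPM in sgNT, and 755 CPM in crTet and 2.71 CPM in crNT, the direction its guide names give. All 8 HEK293T markers searched had reads, with summed levels of 385.6 to 498.8 CPM. The defining leukocyte marker PTPRC was at 0 in every library, the 6 leukocyte markers summed to 3.70 to 6.45 CPM, the 5 fibroblast markers to 33.5 to 47.2 CPM and the 4 endothelial markers to at most 0.623 CPM, and of 4 markers of plasmacytoid dendritic cells, the main interferon producers of blood, 3 were at 0. The libraries of the 2 activators were deposited under names with different prefixes, whose meaning the sources used here do not give. Activator and any batch behind those names cannot be told apart. Within each group the replicates differed by more than sampling noise, and none was counted as a copy of another. The sgTet libraries differed most, with a chi-square of the read counts per degree of freedom of 13.8. It was 6.92 in crTet, 3.94 in sgNT and 3.19 in crNT.

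The promoters of these genes are shown because the sites of interferon response factors lie there. RefSeq promoter windows (GRCh38.p14) were found for 6 of the 8 genes, with 2 windows for IFIT3. The motif searched, the core of the interferon-stimulated response element, was GAAA followed 2 bases later by GAAA, or TTTC followed 2 bases later by TTTC for the other strand. It was in all 7 windows, while 3.57% of 35116 promoter windows of the same 300 bases hold it. Each of the 7 windows held at least 2 copies, which 0.259% of all windows do. Below are the 250 bases before and 10 bases after the start, in the direction of transcription, with motif copies in capitals. BST2 is at chr19:17405621-17405880 on the minus strand, IFIT3 at chr10:89327747-89328006, IFIT5 at chr10:89414318-89414577 and IFITM1 at chr11:313790-314049, the last 3 on the plus strand.
BST2: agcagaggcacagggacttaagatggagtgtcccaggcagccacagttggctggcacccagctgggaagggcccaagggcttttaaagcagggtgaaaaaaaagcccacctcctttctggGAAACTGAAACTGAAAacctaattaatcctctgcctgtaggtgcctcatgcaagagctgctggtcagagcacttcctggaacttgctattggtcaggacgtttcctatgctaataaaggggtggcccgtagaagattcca
IFIT3: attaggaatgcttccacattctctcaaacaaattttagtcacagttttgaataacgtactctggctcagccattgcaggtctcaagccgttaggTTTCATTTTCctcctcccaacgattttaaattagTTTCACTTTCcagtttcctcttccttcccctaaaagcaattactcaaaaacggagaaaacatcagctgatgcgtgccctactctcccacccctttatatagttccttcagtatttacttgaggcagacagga
IFIT5: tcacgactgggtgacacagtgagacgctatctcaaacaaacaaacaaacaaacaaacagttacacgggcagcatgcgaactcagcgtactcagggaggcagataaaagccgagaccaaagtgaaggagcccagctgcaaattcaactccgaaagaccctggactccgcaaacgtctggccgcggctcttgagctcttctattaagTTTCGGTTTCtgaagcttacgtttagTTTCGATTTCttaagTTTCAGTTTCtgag
IFITM1: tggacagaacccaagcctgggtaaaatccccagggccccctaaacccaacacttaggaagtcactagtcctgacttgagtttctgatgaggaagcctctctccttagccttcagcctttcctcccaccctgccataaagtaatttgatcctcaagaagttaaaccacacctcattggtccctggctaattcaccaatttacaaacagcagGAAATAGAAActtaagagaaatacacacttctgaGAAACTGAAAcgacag
In BST2 the 2 copies overlap in 1 run of 16 bases, which begins 130 bases before the start. In IFIT3 the copies begin 156 and 122 bases before the start, on the other strand. IFIT5 had 3 copies, the first 45 and the last 4 bases before the start, and IFITM1 had 2, which begin 40 and 6 bases before it. IFIT1 and IFITM3 had 2 each. The palindrome TTCNNNGAA, a core of the gamma-activated site, was in the windows of IFITM1 (1 copy) and BST2 (2 copies), against 7.66% of all windows. The 1 copy of IFITM1 and 1 of the 2 in BST2 overlap a copy of the first motif. Both are matches of letters, not measured binding.

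All 8 genes had reads in every library and passed the filter on low counts. IFIT1, the cap sensor (ENSG00000185745.10, hg38 chr10:89392546-89406486), was the most abundant. It had 579 and 579 CPM in sgTet, 561 and 550 CPM in sgNT, 994 and 983 CPM in crTet, and 976 and 1034 CPM in crNT. Every dCas12a-VPR library was above every dCasMINI-VPR library, and the crTet and crNT libraries overlapped. IFIT1 made up between 46.7% and 54.3% of the reads of the 8 genes in a library.

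IFIT2 (ENSG00000119922.11, chr10:89283694-89309276) had 81.6 and 84.6 CPM in sgTet, 79.0 and 74.7 CPM in sgNT, 158 and 128 CPM in crTet, and 169 and 163 CPM in crNT. Its 2 crTet libraries lay further apart than those of any other group, and no 2 groups overlapped. The share of all genes whose 4 groups separate in this way was not computed. In the comparison of sgNT with crNT alone, 27.9% of all genes tested had both sgNT libraries below both crNT libraries. IFIT3 (ENSG00000119917.15, chr10:89327894-89340971), which stabilises IFIT1 in their complex, had 171 and 161 CPM in sgTet, 156 and 146 CPM in sgNT, 298 and 270 CPM in crTet, and 371 and 353 CPM in crNT. Again no groups overlapped, and the order was crNT, crTet, sgTet, sgNT, as for IFIT2. IFIT5 (ENSG00000152778.10, chr10:89414586-89421001) had 117 and 109 CPM in sgTet, 117 and 115 CPM in sgNT, 164 and 160 CPM in crTet, and 169 and 168 CPM in crNT. Its sgTet and sgNT libraries overlapped, and its highest group mean was 1.49 times its lowest, the smallest such ratio of the 8 genes.

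IFITM1 (ENSG00000185885.17, chr11:313506-315272) had 36.7 and 30.9 CPM in sgTet, 41.8 and 31.1 CPM in sgNT, 92.4 and 98.0 CPM in crTet, and 73.2 and 68.7 CPM in crNT. Here crTet was the highest group, and the dCasMINI-VPR groups overlapped. IFITM2 (ENSG00000185201.17, chr11:307631-315272) had 24.3 and 21.4 CPM in sgTet, 19.6 and 18.02 CPM in sgNT, 34.4 and 31.6 CPM in crTet, and 29.2 and 28.97 CPM in crNT. IFITM3 (ENSG00000142089.17, chr11:319669-327537, minus strand), which acts in endosomes, had 43.8 and 44.0 CPM in sgTet, 56.7 and 52.2 CPM in sgNT, 112 and 113 CPM in crTet, and 108 and 106 CPM in crNT. For all 3 IFITM genes both crTet libraries were above both crNT libraries, as for 26.3% of all genes tested. Reads of these 3 genes are uncertain: in the GENCODE 29 annotation IFITM1 and IFITM2 share 351 exon bases on the same strand. Of the 50-base windows of the longest coding transcript of IFITM1, 39.0% also occur in transcripts of IFITM2 and 12.2% in those of IFITM3. For IFITM2 5.93% also occur in transcripts of IFITM1 and 10.4% in those of IFITM3. A long non-coding RNA on the opposite strand shares 287 exon bases with IFITM3, and the counts ignore strand.

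BST2 (ENSG00000130303.14, chr19:17402939-17405648, minus strand) varied most. It had 33.5 and 36.3 CPM in sgTet, 61.5 and 55.1 CPM in sgNT, 147 and 122 CPM in crTet, and 194 and 184 CPM in crNT. The 4 groups did not overlap, as for IFIT2, IFIT3, IFITM2 and IFITM3, and the highest group mean was 5.41 times the lowest. Per kilobase of exon, the order of the levels in crNT was IFIT1 (218 CPM per kb), BST2 (169), IFIT3 (137), IFITM3 (79.6), IFITM1 (65.7), IFIT5 (42.0), IFIT2 (40.5) and IFITM2 (18.9). These lengths take the exons of every annotated transcript together. With the longest coding transcript as the length, IFIT2 (44.8 CPM per kb) stood above IFIT5 (42.0), IFITM3 and IFITM2 had 133 and 32.6 CPM per kb, and the order was otherwise the same. In sgTet BST2, IFITM1 and IFITM3 had 31.2 ± 1.79, 31.3 ± 3.75 and 32.6 ± 0.0958 CPM per kb of all exons (SD, n = 2 each). These means lay within the SD of IFITM1. Per kb of the longest coding transcript they were 34.2, 39.5 and 54.3 CPM. The order was the same with either length, but the gaps between these genes rest on the length used.

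**Figure D1:**
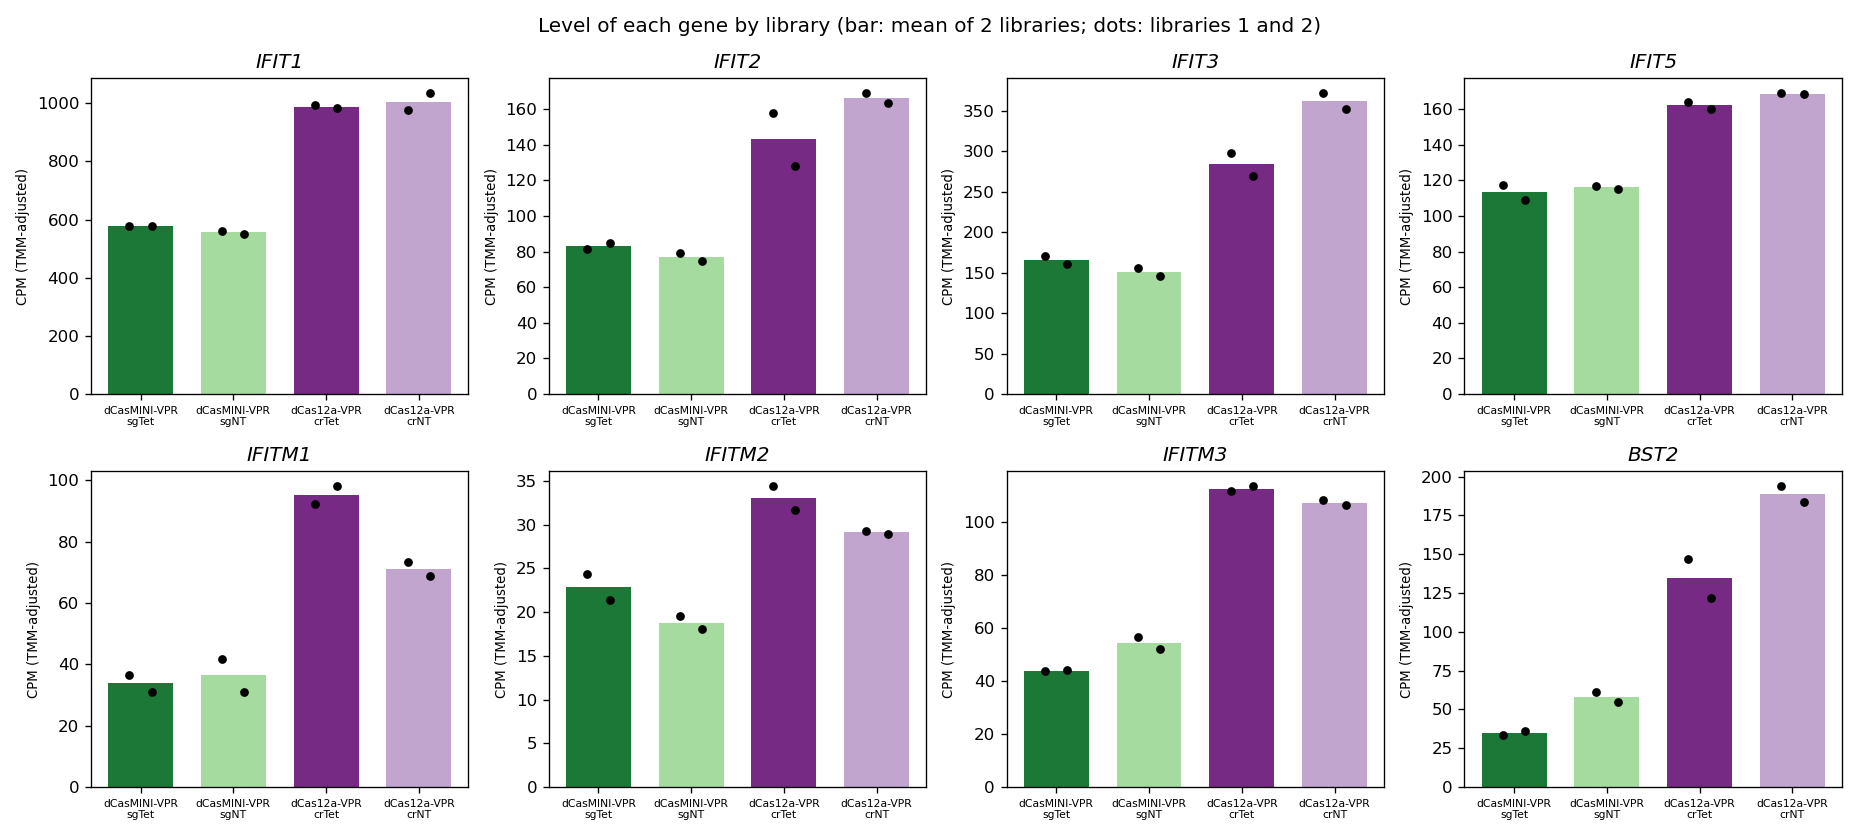
CPM of each of the 8 genes (vertical axes, linear from 0) in dCasMINI-VPR sgTet and sgNT and in dCas12a-VPR crTet and crNT, with a bar for the mean of 2 libraries and a dot for each library. Every gene is higher in the dCas12a-VPR libraries, and BST2 ranges between 33.5 and 194 CPM.

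How far the levels differed between the activators without a targeting guide was asked by comparing sgNT with crNT. All 8 genes were lower in dCasMINI-VPR sgNT than in dCas12a-VPR crNT, in every library and past an adjusted p of 0.05 (edgeR quasi-likelihood test, Benjamini-Hochberg over 16606 genes). Of all genes tested, 3.6% were called lower in this comparison, and the libraries of 27.9% did not overlap in that direction. BST2 was 3.24-fold lower (58.3 ± 4.52 CPM in sgNT and 189 ± 6.96 CPM in crNT, SD, n = 2 each; log2 fold change -1.69 ± 0.09, SE, adjusted p = 2.49e-14) and had the smallest p of all genes tested. IFIT3 was 2.40-fold lower (-1.26 ± 0.07, adjusted p = 6.82e-14) and ranked 2 by p. IFIT2 was 2.16-fold lower (-1.11 ± 0.09) and IFIT1 1.81-fold lower (-0.85 ± 0.07). Errors of all log2 fold changes are standard errors.

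Among the membrane proteins, IFITM3 was 1.97-fold lower (-0.98 ± 0.09, adjusted p = 7.1e-10) and IFITM1 1.94-fold lower (-0.96 ± 0.11, adjusted p = 6.74e-07). The smallest differences were those of IFIT5 (-0.54 ± 0.08, adjusted p = 8.36e-06) and IFITM2 (-0.63 ± 0.13, adjusted p = 0.00103). The median over the 8 genes was -0.97, where that of all genes was 0.00 and the 5th percentile -0.69. The call of IFITM2 was lost without sgNT replicate 2 (adjusted p = 0.0549, range 8.69e-05 to 0.0549 over 15 alternatives), and the other 7 calls held in all 15. In bulk samples, fewer cells that express a gene and less RNA per cell cannot be told apart.

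With Tet guides all 8 genes were again lower in dCasMINI-VPR, now in sgTet against crTet, where 2.6% of all genes were called lower and the libraries of 22.5% did not overlap in that direction. These libraries are not those of the comparison of the non-targeting groups. BST2 was 3.86-fold lower (34.9 ± 2.01 CPM in sgTet and 135 ± 17.9 CPM in crTet, SD, n = 2 each; -1.95 ± 0.10, adjusted p = 5.23e-16), with rank 2 by p. IFITM1 was 2.82-fold lower (-1.49 ± 0.11, adjusted p = 9.68e-11) and IFITM3 2.56-fold lower (-1.36 ± 0.09, adjusted p = 5.74e-13, rank 4). The IFIT genes differed less and by like amounts, IFIT1 by -0.77 ± 0.07, IFIT2 by -0.78 ± 0.09 and IFIT3 by -0.77 ± 0.07, while IFIT5 differed by -0.52 ± 0.08. IFITM2 differed by -0.53 ± 0.12 (adjusted p = 0.00814), a call lost without crTet replicate 1 (0.0927) and with reverse-strand counts (0.119, range 0.00233 to 0.119 over 15 alternatives). The other 7 calls held in all 15. The median over the 8 genes was -0.78, just above the 5th percentile of all genes (-0.80). EGFP was higher in sgTet than in crTet (0.41, adjusted p = 0.00265), the opposite direction to these genes.

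**Figure D2:**
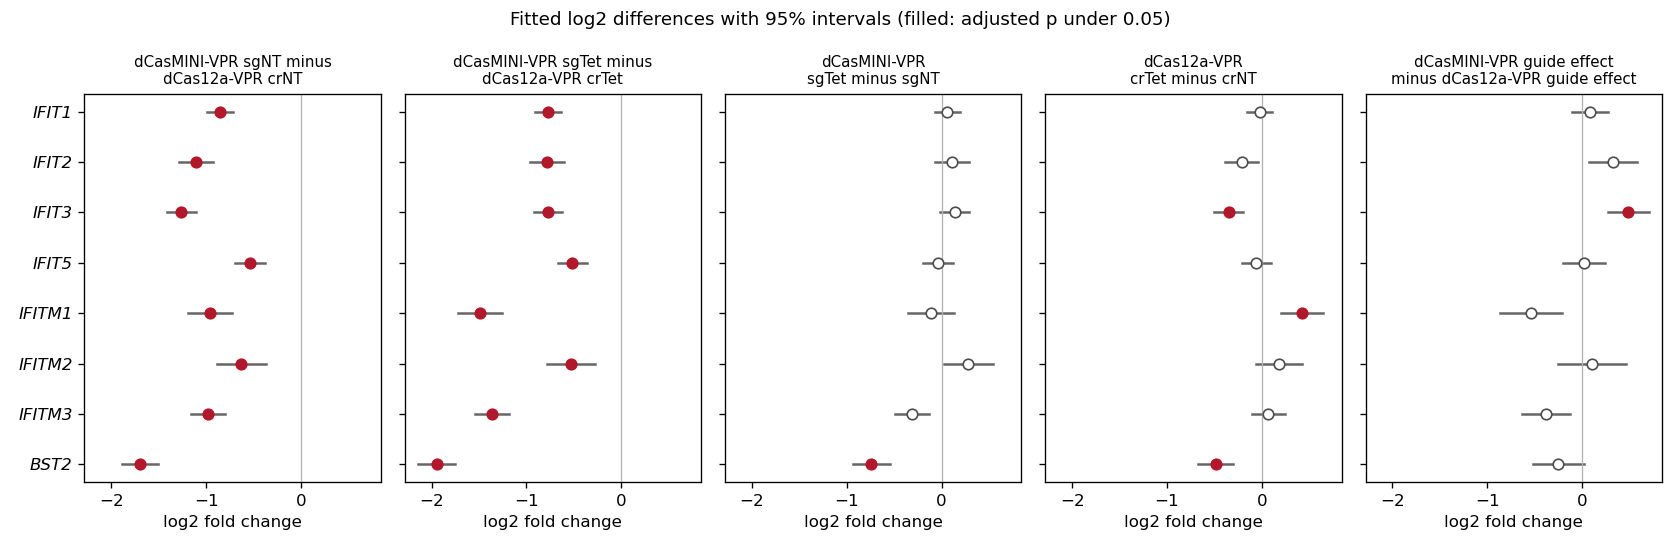
Fitted log2 fold changes of the 8 genes (horizontal axes) with 95% intervals, for dCasMINI-VPR minus dCas12a-VPR with non-targeting and with Tet guides, for each guide effect, and for the difference of the guide effects. Filled points passed an adjusted p of 0.05: all 8 are below 0 in both activator comparisons, with BST2 at -1.69 and -1.95.

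The guide effect within dCasMINI-VPR, sgTet against sgNT, left 7 of the 8 genes uncalled. BST2 fell to 34.9 ± 2.01 CPM in sgTet, against 58.3 ± 4.52 CPM in sgNT (SD, n = 2 each; -0.74 ± 0.10, adjusted p = 1.38e-05). Of all genes tested, 0.795% were called, and 0.325% were called lower. The call of BST2 held in all 16 alternatives, with adjusted p between 1.61e-12 and 0.00333. The next smallest p was that of IFITM3, which was lower in both sgTet libraries without passing (-0.31 ± 0.09, adjusted p = 0.0997). It passed without sgTet replicate 2 (range 0.0342 to 0.521 over 16 alternatives). IFITM2 was at 0.28 ± 0.13 (adjusted p = 0.357) and IFIT3 at 0.14 ± 0.07 (adjusted p = 0.46). The 95% intervals were -0.074 to 0.19 for IFIT1, -0.069 to 0.29 for IFIT2, -0.19 to 0.12 for IFIT5 and -0.35 to 0.13 for IFITM1. Effects within those limits were not excluded.

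Within dCas12a-VPR, crTet against crNT, BST2 and IFIT3 fell and IFITM1 rose, while 6.32% of all genes were called, 3.56% higher and 2.75% lower. BST2 fell to 135 ± 17.9 CPM in crTet, against 189 ± 6.96 CPM in crNT (SD, n = 2 each; -0.49 ± 0.09, adjusted p = 7.16e-04). IFIT3 fell to 284 ± 19.6 CPM in crTet, against 362 ± 13.2 CPM in crNT (SD, n = 2 each; -0.35 ± 0.07, adjusted p = 0.00275). IFITM1 rose to 95.2 ± 3.99 CPM in crTet, against 71.0 ± 3.23 CPM in crNT (SD, n = 2 each; 0.42 ± 0.11, adjusted p = 0.0164). The crNT libraries also had the higher unmapped shares given above, whose part in these differences was not tested. No member call held in every alternative: without crNT replicate 1 or without crTet replicate 2, none of the 8 genes was called. BST2 then had adjusted p = 0.0505 and 0.0552 (range 1.95e-06 to 0.0552 over 16 alternatives), IFIT3 0.136 and 0.0823 (3.35e-05 to 0.136) and IFITM1 0.116 and 0.141 (4.1e-04 to 0.183).

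IFITM1 was also lost without crNT replicate 2 (adjusted p = 0.183) or crTet replicate 1 (0.0522). The reads of IFITM1 summed over both strand columns exceeded its unstranded count by between 2.37% and 15.0% in a library, and its annotation overlaps that of IFITM2 as given above; the part of that overlap in the result was not tested. The other genes were not called: IFIT2 was at -0.21 ± 0.09 (adjusted p = 0.144, range 0.0309 to 0.822), IFITM2 at 0.18 ± 0.12 (0.442), IFITM3 at 0.069 ± 0.08 (0.718), IFIT5 at -0.057 ± 0.08 (0.743) and IFIT1 at -0.024 ± 0.07 (0.894). IFIT2 passed without sgTet replicate 1 (adjusted p = 0.0485), sgTet replicate 2 (0.0479) or crTet replicate 1 (0.0309).

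Whether the guide effects differed between the activators was tested as an interaction, dCasMINI-VPR guide effect minus dCas12a-VPR guide effect, in which 1.35% of all genes were called and 0.506% were called higher. IFIT3 was the member that passed (0.49 ± 0.10, adjusted p = 0.0127), with higher sgTet than sgNT libraries and lower crTet than crNT libraries. That call was lost in 5 of 15 alternatives: with reverse-strand counts (adjusted p = 0.0507) and without sgNT replicate 2 (0.201), crNT replicate 1 (0.17), crNT replicate 2 (0.0555) or crTet replicate 2 (0.0742), over a range of 1.29e-04 to 0.201. IFIT2 did not pass (0.33 ± 0.12, adjusted p = 0.185). IFITM1 (-0.53 ± 0.16, adjusted p = 0.0837) and IFITM3 (-0.38 ± 0.12, adjusted p = 0.109) lay on the other side of 0. For BST2, which fell with both activators, the difference was -0.25 ± 0.13 (adjusted p = 0.344), with a 95% interval of -0.52 to 0.014. The guide comparisons and the activator comparisons share libraries, so their values are not independent of each other.

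**Figure D3:**
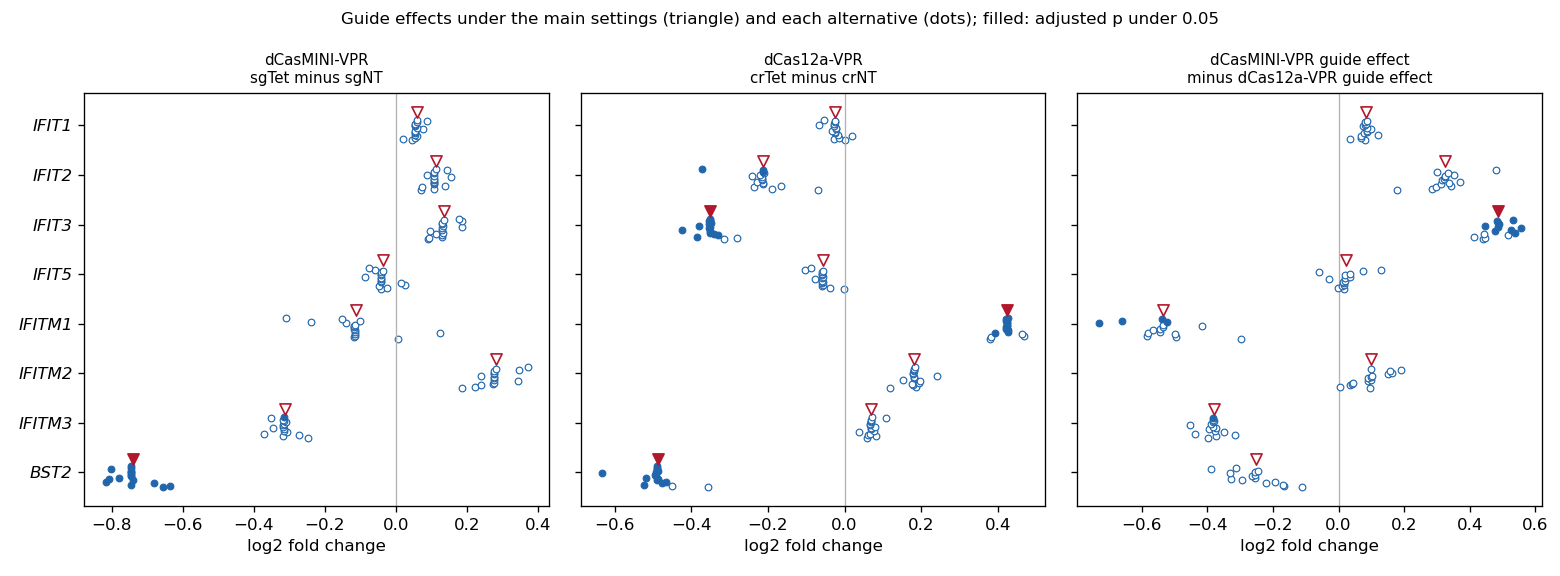
Log2 fold changes of the 8 genes (horizontal axes) for the guide effect with dCasMINI-VPR, the guide effect with dCas12a-VPR and their difference; triangles are the reported values, dots are the alternatives, and filled symbols passed an adjusted p of 0.05. BST2 with dCasMINI-VPR stays filled between -0.82 and -0.64, while its dots with dCas12a-VPR, between -0.63 and -0.36, include 2 that did not pass.

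Other genes of the pathway were listed to set these 8 beside them. Of 49 further interferon-stimulated genes, 44 were tested. In sgNT against crNT 40 of them were lower and none higher, with a median of -1.18, where 3.6% of all genes were called lower. In sgTet against crTet 34 were lower and none higher, with a median of -0.90, where 2.6% of all genes were called lower. STAT2, a signal transducer downstream of the interferon receptors, was lower in sgNT than in crNT (-0.93 ± 0.10, adjusted p = 8.45e-08) and in sgTet than in crTet (-0.86 ± 0.10, adjusted p = 7.4e-07). IRF9, which joins STAT2 on interferon-stimulated response elements, had only 18 to 62 reads over the 2 libraries of a group and was not called. Of the 18 receptor and signalling genes tested out of 20 listed, 5 were lower in sgNT than in crNT and 6 were lower in sgTet than in crTet, and none was higher.

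The interferons themselves had few reads. Of 8 ligand genes listed, 4 were tested: IFNB1, IFNL1, IFNL2 and IFNL3. IFNB1, the interferon-beta gene, averaged 3.14 ± 0.831 CPM in sgTet, 3.53 ± 0.216 CPM in sgNT, 5.01 ± 1.11 CPM in crTet and 6.21 ± 0.464 CPM in crNT (SD, n = 2 each). Its activator differences did not pass (-0.82 ± 0.27, adjusted p = 0.0543 with non-targeting guides, and -0.68 ± 0.27, adjusted p = 0.158 with Tet guides). IFNL2, a lambda interferon whose reads may be split with its close copy IFNL3, averaged 0.343 ± 0.0615 CPM in sgTet and 1.57 ± 0.54 CPM in crTet, and 0.216 ± 0.0155 CPM in sgNT and 1.76 ± 0.191 CPM in crNT. It was called lower in dCasMINI-VPR with either guide (adjusted p = 0.0353 with Tet and 0.00325 with non-targeting guides), and IFNL1 with Tet guides (adjusted p = 0.0129). These calls rest on 8 to 104 reads over the 2 libraries of a group, and each was lost in some alternatives. With Tet guides both were lost without sgTet replicate 1 or crTet replicate 1, and IFNL2 also without either crNT library, with adjusted p up to 0.238 for IFNL2 and 0.296 for IFNL1. IFNA1 had no read in any library.

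Under the guides fewer of the listed genes were called. The median of the 8 genes was 0.01 with dCasMINI-VPR and -0.04 with dCas12a-VPR. Of all genes tested, 0.325% were called lower with dCasMINI-VPR. With dCas12a-VPR 2.75% were called lower and 3.56% higher. With each activator the number of further interferon-stimulated genes called fell or rose depending on the library left out. With dCasMINI-VPR 5 of the 44 further interferon-stimulated genes fell and none rose, with a median of -0.16. That number was 0 without sgNT replicate 1, 3 without any 1 of sgTet replicate 1, sgNT replicate 2 and crNT replicate 1, and 13 without sgTet replicate 2. With dCas12a-VPR 27 fell and 1 rose (median -0.43), and 28 calls became 6 without crNT replicate 1 or crTet replicate 2, and 16 without crNT replicate 2. TAP1, a peptide transporter of antigen presentation, had the smallest adjusted p of the list with dCas12a-VPR and fell to 90.3 ± 7.48 CPM in crTet, against 151 ± 9.91 CPM in crNT (SD, n = 2 each; -0.74 ± 0.09, adjusted p = 1.12e-05). That call held in all 16 alternatives.

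**Figure D4:**
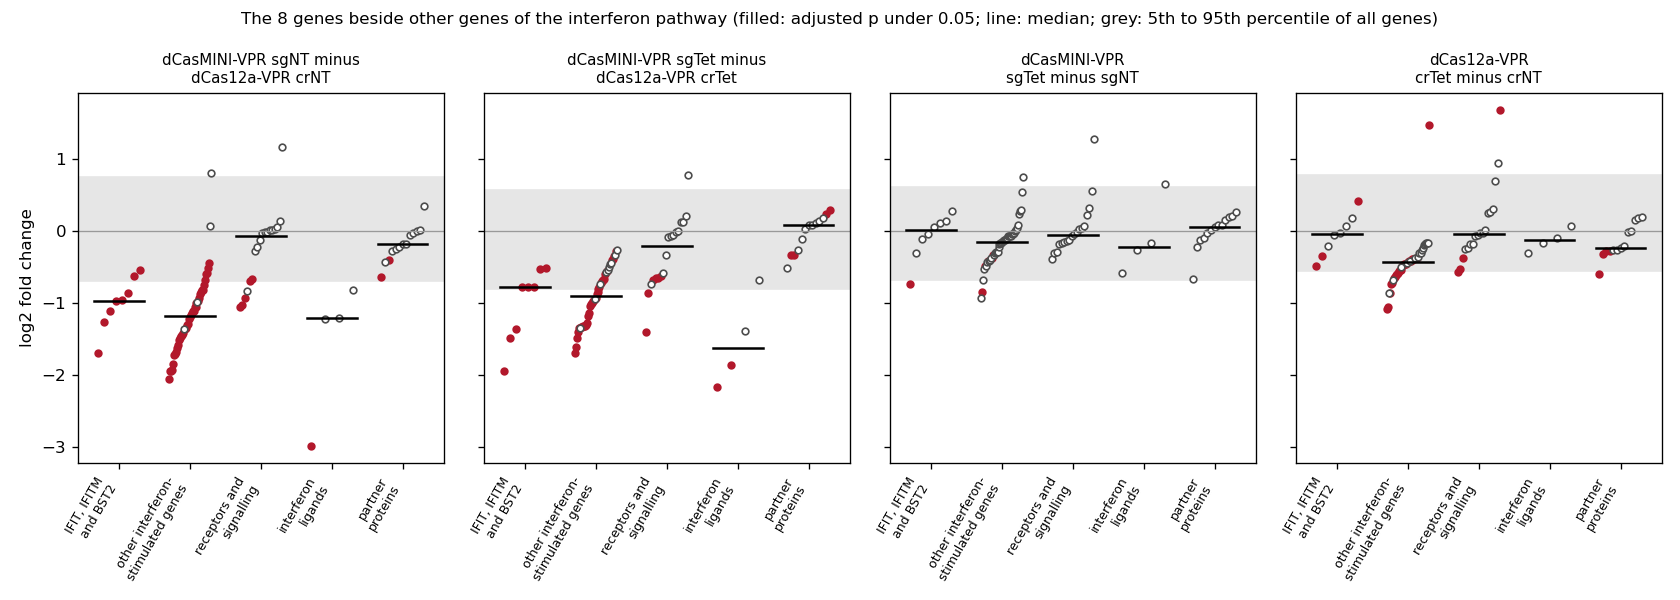
Log2 fold changes (vertical axis) of the 8 genes, of other interferon-stimulated genes, of receptors and signalling genes, of interferon ligands and of partner proteins, for the activator comparisons (first 2 panels) and the guide effects (last 2 panels). Points are genes, filled at an adjusted p under 0.05, the black line is each list's median, and the grey band spans the 5th to 95th percentile of all genes; the median of the 8 genes is -0.97 and -0.78 in the activator comparisons.

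Of 13 genes whose proteins work with or beside these 8, CMTR1, which adds the cap ribose methylation that keeps an RNA from IFIT1, was lower in sgNT than in crNT (140 ± 3.71 CPM in sgNT and 185 ± 2.34 CPM in crNT, SD, n = 2 each; -0.40 ± 0.08, adjusted p = 6.06e-04). SAMHD1, which limits the nucleotides available to retroviruses, was lower there too (-0.63 ± 0.07, adjusted p = 2e-07). The other 11 were not called in that comparison. In sgTet against crTet 2 of the 13 were lower and 2 higher, where 432 of all 16606 genes were called lower and 279 higher. Within dCas12a-VPR 4 of the 13 were lower in crTet than in crNT and none was higher, where 2.75% of all genes were called lower. CMTR1 (-0.28) and SAMHD1 (-0.32) were among those 4, and both calls were lost in some alternatives. Further family genes were near or under the floor: IFIT1B had at most 8 reads over the 2 libraries of a group, IFITM5 at most 2, IFITM10 at most 5, and IFITM4P none.

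BISPR, a long non-coding RNA transcribed away from BST2, starts 38 bases from it in GENCODE 29. It averaged 3.24 ± 0.55 CPM in sgTet, 2.58 ± 0.119 CPM in sgNT, 7.06 ± 0.214 CPM in crTet and 10.2 ± 2.63 CPM in crNT (SD, n = 2 each). It was lower in sgNT than in crNT (-1.98 ± 0.25, adjusted p = 8.73e-07), as BST2 was, and in sgTet than in crTet (-1.12 ± 0.24, adjusted p = 0.0046). The second call was lost without sgTet replicate 1 (adjusted p = 0.0674, range 6.66e-04 to 0.0674 over 15 alternatives). Its guide effects did not pass with dCasMINI-VPR (0.33 ± 0.27, adjusted p = 0.657) or dCas12a-VPR (-0.53 ± 0.22, adjusted p = 0.164).

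The genes most alike in pattern were found by the root mean square difference of centred log2 CPM over the 8 libraries, among 12504 genes with a symbol. IFIT2 and IFIT3 were each other's nearest gene, at 0.080 on the log2 scale, where the median over all genes was 0.51 for IFIT2 and 0.55 for IFIT3. Next came TRIM5 and SERPING1 for IFIT2 (0.12 each), and IFI44L (0.10) and TRIM5 (0.11) for IFIT3. IFIT1 was nearest to KRT8, a keratin (0.085), and then to SERPINF1 and TRIM21 (0.11 each). IFIT5 was nearest to PSME1, a proteasome activator subunit (0.037). IFITM1 was nearest to IFITM3 (0.18), while IFITM3 was nearer to CRABP2, a retinoic acid binding protein (0.078), and LGALS3BP, a secreted glycoprotein (0.098). IFITM2 was nearest to GJB2, a gap junction protein (0.099). BST2 was nearest to IFI27, an interferon-induced mitochondrial protein (0.17), then DHX58 and OAS1 (0.21 each). Among the 3 neighbours of each member, TRIM5, TRIM21, IFI44L, LGALS3BP, IFI27, DHX58 and OAS1 were on the list of further interferon-stimulated genes. The rest were members or not on that list. These distances describe 8 libraries that differ mainly by activator, and carry no test.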

How the data were processed

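Poly(A) RNA was sequenced in 8 libraries, 2 for each of 4 groups named in the labels. Reads were aligned to hg38 with STAR, per the submitters' processing notes, in a version not given, and the authors deposited raw counts of reads per gene without normalization, in 3 columns (strand ignored, forward, reverse). The first column was used. The 4 rows that name no gene held 25.3% to 29.9% of the reads and were left out. Symbols were found for 42062 of 60652 rows, and positions for 58405 in GENCODE 29, an older release than that of the files. Counts were fitted with edgeR 4.0.16 (robust quasi-likelihood, TMM, filterByExpr) in R 4.3.3, with 1 model of all groups and 16606 genes tested. The common biological coefficient of variation was 8.04%, and the libraries gave 4 residual degrees of freedom. Information on the spread borrowed from other genes added a median of 28.9 prior degrees of freedom, so the spread used for a gene is mostly not its own. Calls were made two-sided at an adjusted p of 0.05 (Benjamini-Hochberg). Where a replicate is left out, the lone one is taken to vary as other groups do. The fit was checked on simulated counts.

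The members, the lists of pathway genes and the motifs were chosen with earlier results of these data known. All 8 members are named, as are EGFP, family members outside the list, and up to 3 genes nearest in pattern to each member. Of the list genes with the smallest adjusted p (up to 4 in each comparison), only TAP1 has its result given. LGALS3BP, IFI27 and DHX58, also among these, are named only as near in pattern to a member. IFNB1, IFNL1, IFNL2, IRF9, STAT2, CMTR1, SAMHD1 and IFNA1 were named for their role or after their values were seen. One listed gene is not reported here. Alternatives were DESeq2 1.42.0, other scalings, no filter, either strand column, a replicate block, the 4 libraries of 1 activator, and each library left out. Applying them to the pathway genes was decided after seeing the data. Log2 CPM used a prior count of 2. Promoters are from RefSeq.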

Additional observations from a re-analysis of the deposited data

Results flagged for a closer look

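The guide effect on IFIT3 differed between the activators in the test of the difference itself: dCasMINI-VPR guide effect minus dCas12a-VPR guide effect was 0.49 ± 0.10 on the log2 scale (adjusted p = 0.0127, edgeR quasi-likelihood test). The guide effects behind it were 0.14 with dCasMINI-VPR and -0.35 with dCas12a-VPR. Over 15 alternatives the value kept its sign, between 0.41 and 0.56, and 5 of them lost the call.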

How the results depend on the processing

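Over the 5 comparisons the values of the 8 genes were recalculated 616 times, and 582 kept their direction and their side of the threshold. In 16 a call was lost, in 9 one was gained, and in 9 an uncalled value changed sign, the cause of which was not tested. The changed signs were those of IFIT5 with dCasMINI-VPR (0.027 with reverse-strand counts, and -0.087 to 0.016 when libraries were left out), IFITM1 with dCasMINI-VPR (-0.31 to 0.12 when libraries were left out), IFIT1 with dCas12a-VPR (0.0016 with reverse-strand counts, and -0.066 to 0.020 when libraries were left out) and IFIT5 in the difference of guide effects (-0.058 with forward-strand counts, and -0.029 to 0.074 when libraries were left out). Of all genes, 132 were called for the guide effect with dCasMINI-VPR, 276 with no filter, which tests more genes, and 84 with only the 4 libraries of that activator. With dCas12a-VPR 1049 were called, 661 with forward-strand counts, which hold fewer reads, and 1785 with only its 4 libraries. For the difference 224 were called, 450 with no filter, 106 with forward-strand counts and 347 with the replicate block. The members called there were 1, but 2 with no filter, 0 with reverse-strand counts and 2 with the replicate block, where IFITM1 passed (adjusted p = 0.0378). For sgTet minus crTet 711 were called, and 444 with forward-strand counts. Leaving out each library in turn gave 50 to 1475 genes and 1 to 2 members with dCasMINI-VPR, 135 to 1965 genes and 0 to 4 members with dCas12a-VPR, 28 to 1835 and 0 to 2 for the difference, 333 to 2143 and 7 to 8 for sgNT minus crNT, and 331 to 2150 and 7 to 8 for sgTet minus crTet. The highest count of genes in each of the 5 comparisons came without sgTet replicate 2. Without sgTet replicate 1 the counts were nearly as high with dCas12a-VPR and for sgNT minus crNT, which do not compare sgTet. All groups share 1 estimate of the spread, so the spread of sgTet enters every comparison. With library size alone the split of higher and lower calls moved to 68 and 80, against 78 and 54, with dCasMINI-VPR, to 432 and 602, against 592 and 457, with dCas12a-VPR, and to 186 and 464, against 279 and 432, for sgTet minus crTet. Same-numbered libraries deviated together only weakly (correlation 0.0552 within dCasMINI-VPR and 0.0756 within dCas12a-VPR), so the replicate numbers were not shown to pair libraries. The block changed no member call outside the difference. Counting error is largest where reads are few, as for IFNL2 and IRF9, and of the 8 genes IFITM2 had the fewest reads in each group.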
